A study of Mus musculus with 4 samples.

Results

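Selenbp1, the glutathione peroxidase genes Gpx1, Gpx3, Gpx4, Gpx7 and Gpx8, and Selenop are described here in mouse mesangial cells, the contractile cells that hold together the capillary loops of the kidney glomerulus. These 7 genes were selected with their measured differences between TGF-beta1 and low glucose known, so those differences are given as a description, with no test. All probe sets annotated to exactly 1 of these symbols were taken, which gave 9 probe sets for the 7 genes, among 18193 genes with such a probe set. The study hybridised total RNA of mesangial cells to 4 arrays of one colour, 2 labelled low glucose and 2 labelled TGFBeta, the cytokine TGF-beta1 according to their description. The mouse strain, whether the cells were primary or a line, the dose, the time, and the glucose in the medium of the TGF-beta1 cells are not stated in the labels, so an effect of the cytokine and one of the glucose level cannot be told apart. Whether the replicate arrays stand for separate cultures is not stated in the labels either, and the spread between them may be technical.

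Glutathione peroxidases reduce hydrogen peroxide and organic hydroperoxides with electrons from glutathione. GPX1, GPX3 and GPX4 carry selenocysteine in the active site, the amino acid that a UGA codon encodes when the mRNA holds a selenocysteine insertion element, whereas GPX7 and GPX8 use cysteine and work in the endoplasmic reticulum. SELENOP is a secreted selenoprotein that carries selenium between tissues, and kidney cells take it up through the receptor LRP2. SELENBP1 is not a selenoprotein of that kind: it binds selenium and oxidises methanethiol, which releases hydrogen peroxide and hydrogen sulfide.

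Selenbp1 has a close copy, Selenbp2, on the same chromosome. In GRCm38.p6 RefSeq places Selenbp1 at chr3:94933083-94944758 and Selenbp2 at chr3:94693573-94704406, 229 kb apart. The copies matter to the measurement, because the brighter of the 2 Selenbp1 probe sets, 1417580_s_at, is named Selenbp1 by the platform annotation while the transcript accession it lists there belongs to Selenbp2 in RefSeq. The suffix _s_at is the array maker's mark for a probe set that can detect more than 1 transcript. The transcript listed for the other probe set, 1450699_at, is that of Selenbp1. No probe set carried Selenbp2 as its only symbol, so how much of either signal came from each copy was not measured. The likeness extends upstream of the genes, as the aligned stretches around the 2 start sites show. Capitals mark bases that differ from the other copy or have no partner in it, the strand is plus, and the sequences are RefSeq's, GRCm38.p6, chr3:94932847-94933122 for Selenbp1 and chr3:94693335-94693622 for Selenbp2.
Selenbp1: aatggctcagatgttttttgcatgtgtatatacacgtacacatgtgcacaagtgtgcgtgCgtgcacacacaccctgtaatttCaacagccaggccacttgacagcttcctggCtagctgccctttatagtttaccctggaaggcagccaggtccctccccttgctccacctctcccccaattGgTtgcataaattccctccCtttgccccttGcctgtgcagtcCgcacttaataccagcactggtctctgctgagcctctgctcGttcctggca
Selenbp2: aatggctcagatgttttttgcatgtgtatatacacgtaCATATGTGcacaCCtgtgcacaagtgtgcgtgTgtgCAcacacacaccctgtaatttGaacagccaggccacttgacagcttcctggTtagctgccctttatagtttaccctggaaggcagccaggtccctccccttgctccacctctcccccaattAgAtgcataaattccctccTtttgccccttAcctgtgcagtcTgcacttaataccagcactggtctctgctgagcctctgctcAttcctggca

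Over 276 aligned positions, 267 bases were identical and 9 differed, which is 96.7% identity, and a further 12 bases of Selenbp2 had no partner. The longest run shared without a difference was 69 bases. Windows of 300 bases, 250 before and 50 after each start, were searched on both strands for the core of the antioxidant response element (TGACNNNGC), the SMAD palindrome GTCTAGAC, the SMAD motif CAGACA and the E box CANNTG. None of the first 3 motifs was found in the windows of the 7 genes or of Selenbp2, while 12.4%, 0.213% and 21.0% of all 32851 mouse windows held them. The E box, the letters that helix-loop-helix factors bind, is common and occurred in 72.3% of all windows. Selenbp1 held 7 matches and Selenbp2 held 6, and 0.18% and 0.67% of all windows held at least as many. The windows of Gpx1, Gpx3 and Gpx8 held 0. These matches describe the letters in the windows, and binding was not measured.

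The arrays fell into pairs that crossed the groups. Over 18 hybridisation spike-in probe sets, which report RNA added at known amounts and not the cells, low glucose replicate 1 differed from TGF-beta1 replicate 2 by a mean of 0.0449 log2 units and low glucose replicate 2 from TGF-beta1 replicate 1 by 0.0847, against 0.855 and 0.949 for the other combinations. These are called array pair 1 and array pair 2, and no label says what they shared in the laboratory. Both titles of pair 1 carry the repeat tag rpt. In pair 2 the low glucose title carries rpt 2 and the TGF-beta1 title no tag. What the tags mean is not stated. Replicate numbers only name the arrays. Mesangial markers were mostly dim: 7 of 9 passed the filter on low values, and Thy1 and Gata3 were below it. Their summed deposited intensity was 914 to 1168 in low glucose and 1089 to 1356 in TGF-beta1. The brightest was Mcam, at 289.7 to 527.2. Of the 7 tested, 6 were higher in TGF-beta1 and 1 lower, with the largest differences 0.34 for Mcam and 0.32 for Acta2. Pdgfrb, a receptor that marks mesangial cells, read 87.2 to 118 and Itga8 65.2 to 76.0, so apart from Mcam the labelled cell type rests here on weak signals. Podocyte markers summed to 580 to 738 in low glucose and 545 to 778 in TGF-beta1, with 3 of 5 listed genes above the filter. Endothelial markers summed to 219 to 277 and 203 to 288, with 1 of 5 above it. Macrophage markers summed to 1540 to 1932 and 1242 to 1582 (4 of 5), mostly from Csf1r, at 952.1 to 1658. Cd68, Adgre1 and Lyz2 read 67.77 to 108.5, and Ptprc was below the filter. Markers of other epithelia summed to 3067 to 3078 and 4297 to 4436 (3 of 5), mostly from Krt18, at 2602 to 4118. Cdh1 and Krt19 were below the filter. No listed marker with a probe set was at 0.

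Selenbp1 was the member with the largest difference. Probe set 1417580_s_at had deposited intensities of 470.8 and 444.8 in low glucose replicates 1 and 2, against 155.6 and 165.1 in TGF-beta1 replicates 1 and 2. Both TGF-beta1 arrays lay far below both low glucose arrays, and the arrays of each group were close to each other. The deposited intensity in low glucose was 2.85 times that in TGF-beta1 in pair 1 and 2.86 times in pair 2. After log2 transformation with an added 46.88 and quantile normalisation, the level was 8.98 ± 0.035 (SD, n = 2) in low glucose and 7.69 ± 0.076 (SD, n = 2) in TGF-beta1, a difference of -1.29 on that log2 scale, or 2.45-fold lower. Within the pairs the difference was -1.37 and -1.21. Among the 13565 genes tested it was the gene second from the lowest difference, rank 2, and rank 6 by size.

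The other probe set of Selenbp1, 1450699_at, was dimmer. It read 206.8 and 264.8 in low glucose against 110.8 and 73.23 in TGF-beta1. The groups did not overlap here either, although the TGF-beta1 arrays differed more from each other than at the first probe set. The normalised difference was -1.02, or 2.02-fold lower, with -1.10 in pair 1 and -0.93 in pair 2. So the probe set listed with a Selenbp2 transcript and the one listed with a Selenbp1 transcript had differences of the same sign in both pairs.

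**Figure D1:**
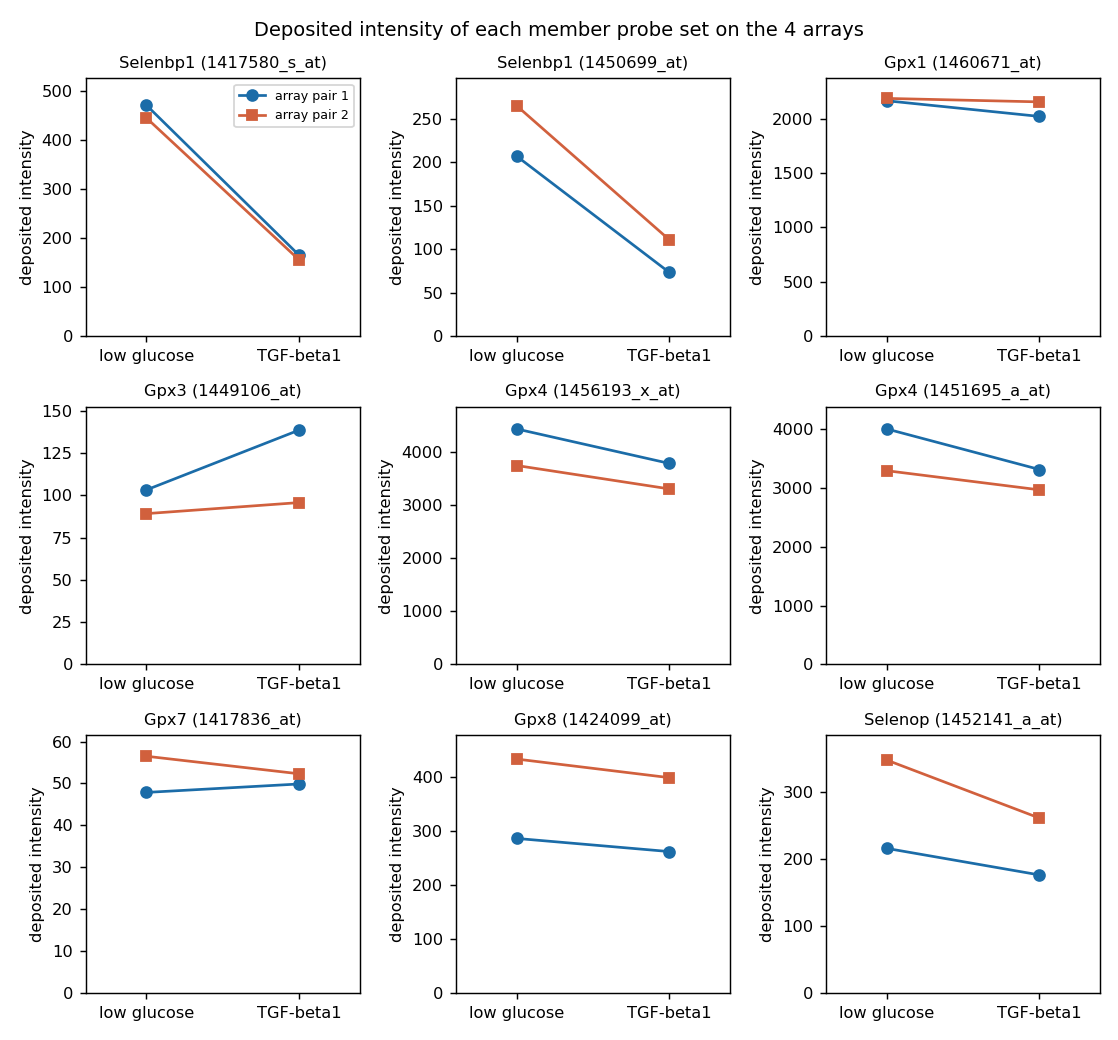
Deposited intensity of each of the 9 probe sets in the 4 arrays, on linear axes that start at 0; lines join the arrays of a pair, with circles for array pair 1 and squares for array pair 2. Both lines drop steeply in the 2 Selenbp1 panels, from 470.8 and 444.8 to 165.1 and 155.6 at the brighter probe set, while in the Gpx8 and Selenop panels the lines of the pairs lie apart.

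The summed intensity of 5 markers of the proximal tubule, the nephron segment whose cells take up SELENOP, was lower in the same arrays as Selenbp1. It was 3073 and 2424 in low glucose against 1757 and 2061 in TGF-beta1, with 3 of 5 genes above the filter. Most of that sum was Aqp1, a water channel, with a difference of -0.67. Lrp2 differed by -0.29, while Slc5a2, the glucose transporter of the segment, differed by 0.05. The median was 0.04 over all 5 and -0.29 over the 3 above the filter. Cubn, the partner receptor of Lrp2, and Slc34a1, the phosphate transporter that defines the segment, were below the filter. Single markers of other cells were lower in the same arrays as well, Synpo of podocytes by a difference of -0.58 and Csf1r of macrophages by -0.38. The other tested markers of those lists did not share this: Podxl differed by 0.23 and Nphs1 by 0.16. Among the macrophage markers, Cd68 differed by 0.14, Adgre1 by 0.06 and Lyz2 by -0.03. Tested markers of other epithelia went the opposite way to Selenbp1, with Krt18 at 0.54, Krt8 at 0.40 and Epcam at 0.06. Over all listed genes with a probe set, the medians were 0 for podocytes, 0.06 for macrophages and 0.06 for other epithelia. Over the tested genes alone they were 0.16, 0.02 and 0.40. The part of these cells in the result for Selenbp1 was not tested. In bulk RNA, fewer cells of a type and less RNA per cell cannot be told apart.

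The tested genes with profiles nearest to Selenbp1 over the 4 arrays, by Euclidean distance between log2 values centred on each gene's mean, were Agt, Id3, Rasl11b, Ntn4 and Enpep. Their distances were 0.151, 0.305, 0.359, 0.394 and 0.44, against a median of 1.33 over all genes and 0.54 for the second probe set of Selenbp1 itself. Agt, which encodes angiotensinogen, read 633.2 and 598.4 in low glucose against 266.8 and 236.8 in TGF-beta1, a difference of -1.16. Id3, an inhibitor of helix-loop-helix factors, read 610.9 and 579.7 against 290.4 and 265.8, a difference of -0.99. Enpep, the aminopeptidase that trims angiotensin II, differed by -1.14, Rasl11b by -0.98 and Ntn4, a netrin of basement membranes, by -0.94. In all 5 the TGF-beta1 arrays lay below the low glucose arrays, a pattern that the measure of likeness itself selects.

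**Figure D2:**
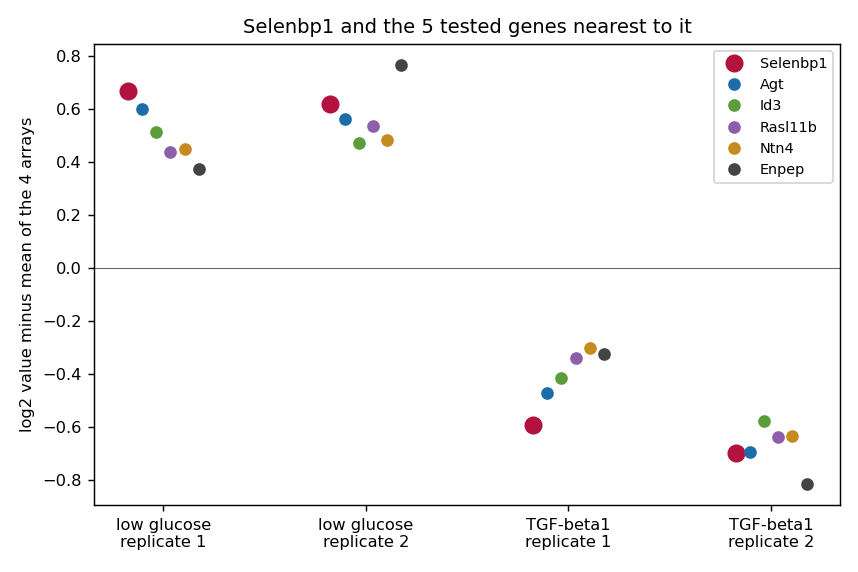
Log2 level of Selenbp1 (1417580_s_at) and the 5 tested genes nearest to it, each centred on its own mean, in the 4 arrays. All 6 profiles are high in the low glucose arrays and low in the TGF-beta1 arrays; the distances from Selenbp1 run from 0.151 for Agt to 0.44 for Enpep.

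Among the peroxidases that carry selenocysteine, none differed as Selenbp1 did. Gpx1 (chr9:108339080-108340342), the abundant enzyme of cytosol and mitochondria, read 2168 and 2190 in low glucose against 2158 and 2024 in TGF-beta1. The deposited TGF-beta1 values lay just below the others, but after normalisation the groups overlapped and the difference was -0.07, with -0.10 and -0.03 within the pairs. Leaving out TGF-beta1 replicate 2 turned it to 0.01.

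Gpx4 (chr10:80047166-80056439), the enzyme that reduces phospholipid hydroperoxides inside membranes and restrains ferroptosis, had 2 probe sets. Probe set 1456193_x_at read 4433 and 3745 in low glucose against 3305 and 3785 in TGF-beta1, and 1451695_a_at read 4006 and 3296 against 2971 and 3317. The deposited groups overlapped at both. Once the arrays were brought to 1 distribution, the TGF-beta1 arrays lay below the low glucose arrays at both probe sets, with differences of -0.21 and -0.22, each about 1.16-fold lower. With single arrays left out they ran from -0.31 and -0.32 without low glucose replicate 2 to -0.11 at both without low glucose replicate 1. Within the pairs they were -0.26 and -0.16 at the first and -0.29 and -0.14 at the second, so the probe sets gave like values.

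Gpx3 (chr11:54902854-54910387), the plasma enzyme that the kidney secretes, was the only member higher in TGF-beta1 in both pairs. It was dim, at 103.2 and 89.16 in low glucose against 95.68 and 138.5 in TGF-beta1. The deposited groups overlapped, because low glucose replicate 1 was above TGF-beta1 replicate 1. Normalised, the difference was 0.16, or 1.12-fold, with 0.28 in pair 1 and 0.04 in pair 2, so the size came mainly from 1 pair; it was 0.25 when TGF-beta1 replicate 1 was left out and 0.08 when TGF-beta1 replicate 2 was.

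Neither cysteine enzyme of the endoplasmic reticulum stood apart between the groups. Gpx8 (chr13:113042757-113046430), a membrane protein of that compartment, read 286.1 and 433.1 in low glucose against 398.7 and 261.8 in TGF-beta1, so each group held a high and a low array. Its normalised difference was -0.10, with -0.11 and -0.10 within the pairs; dropping low glucose replicate 2 turned it to 0.18 and dropping TGF-beta1 replicate 2 to 0.19, as each leaves a group with an array of 1 pair only. Gpx7 (chr4:108400217-108406713), its soluble relative, read 47.85 and 56.48 in low glucose against 52.3 and 49.86 in TGF-beta1. These values lay at the 28.4th percentile of all probe sets, below the filter at the 40th, and the pairs gave opposite signs, 0.01 and -0.08.

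Selenop (chr15:3270767-3280510) read 215.3 and 346.8 in low glucose against 260.5 and 175.8 in TGF-beta1. The groups overlapped, since TGF-beta1 replicate 1 was above low glucose replicate 1. Within each pair the TGF-beta1 array was the lower: its deposited intensity was 0.817 of its partner's in pair 1 and 0.751 in pair 2. The normalised difference was -0.30, or 1.23-fold lower, with -0.26 and -0.35 within the pairs; leaving out low glucose replicate 2 gave 0.03 and leaving out TGF-beta1 replicate 2 gave -0.01, while dropping replicate 1 of low glucose or of TGF-beta1 gave -0.64 or -0.60.

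**Figure D3:**
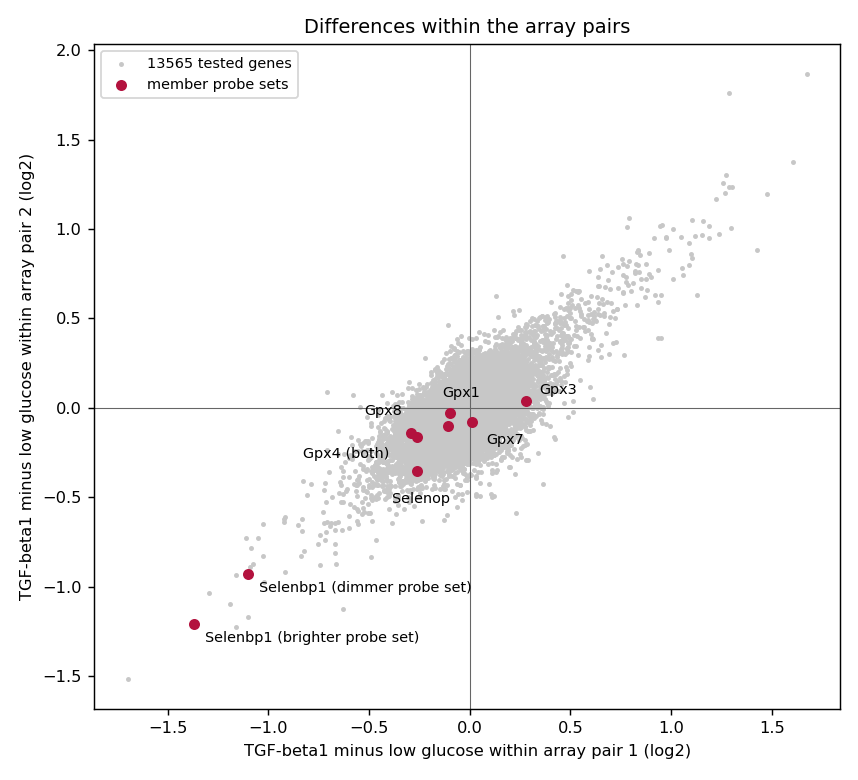
TGF-beta1 minus low glucose on the normalised log2 scale for the 9 probe sets, with pair 1 on the horizontal axis and pair 2 on the vertical axis; red points are the members and grey points the 13565 tested genes. The 2 Selenbp1 probe sets lie at the lower left (-1.37, -1.21 and -1.10, -0.93), and all other members lie within 0.35 of 0 on both axes.

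Counted over the 9 probe sets, 7 were lower in TGF-beta1 in both pairs, 1 was higher in both (Gpx3) and 1 had opposite signs (Gpx7). Normalised, both TGF-beta1 arrays were below both low glucose arrays at 4 probe sets (Selenbp1 and Gpx4) and above at 1 (Gpx3), and they overlapped at 4. Over all tested genes, 11.1% had both TGF-beta1 arrays below and 9.83% had both above. Because the members were chosen on this contrast, these shares are printed for scale and nothing is read from them. 8 of the 9 probe sets passed the filter, and 6 of the 7 genes entered the fits through their brightest probe set. With 2 arrays against 2, an exact permutation test cannot give a two-sided p below 0.333.

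The difference between the array pairs played no part in choosing the members and was tested. Gpx8 was higher in pair 2 than in pair 1 by 0.58 log2 units (SE 0.095), or 1.49-fold, with an adjusted p of 0.0068 by limma with Benjamini-Hochberg adjustment. Selenop was higher in pair 2 by 0.63 (SE 0.148), or 1.54-fold, adjusted p = 0.0192 by limma. Both arrays of pair 2 lay above both arrays of pair 1 in each gene. These differences were larger than those between TGF-beta1 and low glucose in the same genes, -0.10 and -0.30. Of the 6 members tested, 2 were higher in pair 2 and 0 were lower; over all 13565 genes 19.8% were higher and 21.5% lower, 41.3% in either direction, so a pair difference was common. Leaving out an array sets 1 array against 2, with the lone array assumed to vary like the other pair. The limma adjusted p then ran from 0.0139 to 0.0493 for Gpx8, and Selenop lost its call when low glucose replicate 2 (adjusted p = 0.0868) or TGF-beta1 replicate 2 (0.0642) was dropped.

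For the other members the pair difference did not pass. It was 0.12 for Gpx1 (SE 0.078, limma adjusted p = 0.25), -0.15 for Gpx4 (SE 0.106, adjusted p = 0.291) and -0.05 for Gpx3 (SE 0.104, adjusted p = 0.711). Gpx1 passed with each array centred on its median in place of quantile normalisation (adjusted p = 0.0467). The dimmer Selenbp1 probe set, 1450699_at, was higher in pair 2 by 0.49, or 1.41-fold, but did not enter the fit and was not tested. Selenbp1 at 1417580_s_at differed by 0.03 between the pairs, with an SE of 0.529 that is large because the group difference sits in the residual. With the group added as a second term its SE was 0.069 and its adjusted p 0.728, and 3 of the 6 members passed, Gpx4 at 0.014 joining Gpx8 and Selenop. In that fit, which has 1 residual degree of freedom and a spread pooled over all genes, 66.5% of all genes passed, so the members' count is not above that background. At both Selenbp1 probe sets the larger of the differences lay between the labelled groups, and for Gpx8 and Selenop it lay between the pairs. The members were chosen with the group difference known, so this is a description and nothing is read from it.

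**Figure D4:**
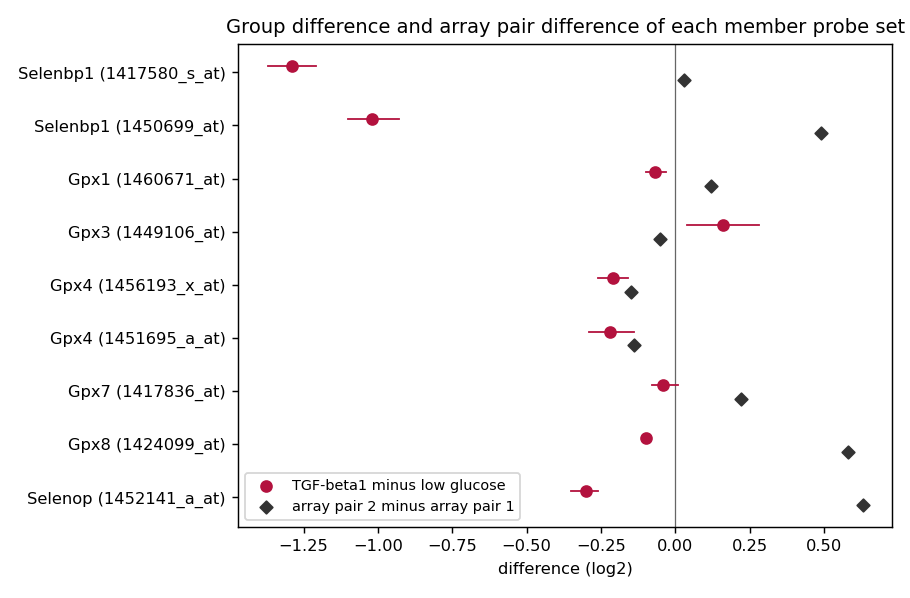
Log2 difference of each of the 9 probe sets: red circles give TGF-beta1 minus low glucose, with a red line spanning the 2 within-pair values, and black diamonds give array pair 2 minus array pair 1. Selenbp1 (1417580_s_at) has -1.29 between groups and 0.03 between pairs, whereas Gpx8 has -0.10 between groups and 0.58 between pairs.

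Other genes of selenium, peroxide, glutathione and sulfide metabolism were counted from lists of 93 genes in all, 81 of them tested. Without a block limma called 0 of 13565 genes (0%) between TGF-beta1 and low glucose, with 271 at an unadjusted p under 0.05, 3 of them in the lists. With the array pair as a replicate block, limma called 2503 genes, 7.89% of all tested as higher and 10.6% as lower in TGF-beta1. That fit has 1 residual degree of freedom and rests on a spread pooled over all genes. An alternative kept that pooled spread but gave it the smaller weight, 2.793 prior degrees of freedom, of the model without pairs. This limma fit called 0 genes, with 2242 at an unadjusted p under 0.05. In the lists 7 genes rose and 7 fell with the block, 8.64% each way, close to the shares over all genes. The median difference over the 81 genes was -0.03, against 0 for all tested genes. A size of at least 0.5 was reached by 4 of the 81, a larger share than 245 of all 13565. The lists were chosen with earlier results of these data known, so nothing is read from that share. Leaving out low glucose replicate 2 or TGF-beta1 replicate 2 turned the sign of the median in 5 of the 8 lists (for the other selenoproteins from -0.02 to 0.08 and 0.12, for glutathione genes from -0.11 to 0.02 and 0.01), so those 5 medians have no settled direction. In what follows, rose and fell refer to the fit with the block.

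Of the 17 other selenoproteins tested, 2 rose, 1 fell and 14 missed the threshold; the median was -0.02. Msrb1, a methionine sulfoxide reductase, fell by 0.30 on the log2 scale, from 1403 and 1292 in low glucose to 1090 and 1092 in TGF-beta1. Selenoi, which makes phosphatidylethanolamine, rose by 0.25 and Selenok, of the endoplasmic reticulum membrane, by 0.22. Their groups overlapped, and the increase showed within each pair only. A second probe set differed by 0.24 for Selenok, and 2 further ones above the filter by 0.23 and 0.04 for Selenoi. Selenom, also of the endoplasmic reticulum, differed by -0.19 and did not pass. Of the other glutathione peroxidases, Gpx5 differed by 0.04 and did not pass, and Gpx2 and Gpx6 were below the filter.

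Of 13 tested genes for selenocysteine synthesis and insertion and for selenium uptake, 1 rose, 1 fell and 11 missed the threshold; the median was -0.05. Over all genes 7.89% rose and 10.6% fell, so these counts are not above that background. The 2 genes, Lrp2 and Lrp8, both encode receptors for SELENOP and moved in opposite directions. Lrp2, the receptor of kidney epithelium and also one of the proximal tubule markers above, fell by 0.29, from 494.1 and 454.1 to 375.0 and 379.4. Lrp8, the receptor known from brain and testis, rose by 0.29, from 474.9 and 546.9 to 701.6 and 570.2. The groups did not overlap for either receptor at these probe sets; the others above the filter differed by -0.27 for Lrp2 and by 0.01 and 0.19 for Lrp8. Scly, which releases selenium from selenocysteine, and Sars, which charges the serine that is turned into selenocysteine, differed by -0.18 and 0.15 and did not pass; the other probe set of Scly differed by 0.

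Of 10 other enzymes that remove peroxide and superoxide, 0 passed with the block and 0 without it, and the median was -0.05, or -0.10 when low glucose replicate 1 was dropped and -0.01 and -0.02 when replicate 2 of low glucose or of TGF-beta1 was. Over the brightest probe set of each gene, the largest difference was that of Sod2, the mitochondrial superoxide dismutase, at -0.21. Sod3, the extracellular form, had 2 probe sets of nearly equal brightness that disagreed: the brighter differed by -0.09 and the other by -0.54, with -0.55 and -0.53 within the pairs. Srxn1, which repairs overoxidised peroxiredoxins, had 0.16. Cat, which encodes catalase, differed by 0.08 in pair 1 and by -0.25 in pair 2; it lies outside the rule for named genes and was added as the textbook peroxide enzyme. For Prdx1, Prdx5 and Prdx6 no probe set carried 1 symbol alone.

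Of 9 genes of glutathione synthesis and recycling, 1 rose, 1 fell and 7 missed the threshold; the median was -0.11. Gclm, the modifier subunit of the enzyme that limits glutathione synthesis, rose by 0.20, and its groups overlapped (1735 and 1410 against 1591 and 2042). Its other probe set, also above the filter, differed by -0.03 and did not show the increase. Glrx, a glutaredoxin that removes glutathione from proteins, fell by 0.29, also with overlapping groups, and differed by -0.23 at its other probe set. Gsr, which reduces oxidised glutathione for the peroxidases, and Glrx2 each differed by -0.16 and did not pass.

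Hydrogen sulfide is a product of the SELENBP1 reaction. The genes listed under hydrogen sulfide and thiol oxidation had a median of -0.13 over 8 tested, of which 3 fell, 0 rose and 5 did not pass. Over all genes 10.6% fell and 7.89% rose. The list was chosen with earlier results of these data known, so nothing is read from its count. Cbs, which makes hydrogen sulfide from homocysteine and cysteine, read 434.0 and 424.2 in low glucose against 255.1 and 214.7 in TGF-beta1. It fell by 0.77, with -0.92 and -0.62 within the pairs and no overlap between the groups. Its other probe set differed by -0.34, and there the deposited groups overlapped, with 307.6 and 202.4 in low glucose against 164.3 and 216.7 in TGF-beta1. Mpst, which makes hydrogen sulfide from mercaptopyruvate, fell by 0.24, and Sqor, which oxidises it in mitochondria, fell by 0.21 but differed by 0.04 at its other, dimmer probe set. Ethe1, the next enzyme of that oxidation, differed by 0.16 and did not pass. Cth and Mtap, also in the list but outside the rule for named genes, each differed by 0.09 and did not pass. The median moved with single arrays left out, to -0.27 and -0.22 when replicate 1 of low glucose or of TGF-beta1 was dropped, and to -0.08 and -0.04 when replicate 2 of low glucose or of TGF-beta1 was.

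**Figure D5:**
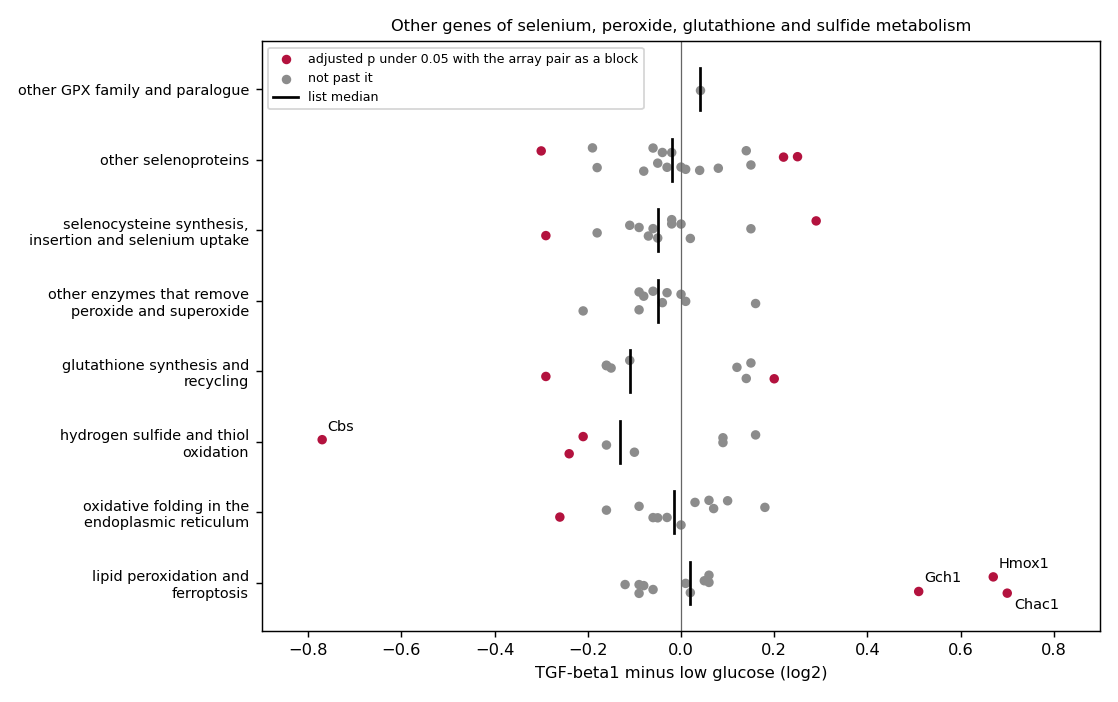
TGF-beta1 minus low glucose (normalised log2) for the tested genes of 8 lists; each point is a gene, red where the adjusted p was under 0.05 in limma with the array pair as a block and grey otherwise, and black bars are list medians. List medians lie between -0.13 and 0.04, and Cbs (-0.77), Gch1 (0.51), Hmox1 (0.67) and Chac1 (0.70) are the 4 genes at or beyond 0.5 in size.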

How the data were processed

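Total RNA of mouse mesangial cells was measured on 4 arrays of one colour, grouped by their titles. The authors deposited 1 linear intensity per probe set and array; the summary of probes and the scaling of arrays are not given here by any label. From these, log2(intensity + 46.88) was taken, where the added value is the 25th percentile over all arrays. Array medians differed by 0.228, over the limit of 0.1, so arrays were quantile normalised. After leaving out 64 control probe sets, probe sets whose mean reached the 40th percentile were kept (27022), with the brightest per gene tested (13565 genes; limma 3.58.1, R 4.3.3, lmFit and eBayes with trend, two-sided, Benjamini-Hochberg threshold 0.05). The fits were run on simulated data in which every gene had the same random spread, so that run could not test the pooling of the spread over genes. Fold changes on this scale understate those of dim genes, and 2 arrays a group limit the precision.

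Symbols came from the platform annotation, sequences from RefSeq tables (GRCm38.p6), aligned with Biopython 1.88. Proteins were not analysed here. Named genes were all members, up to 4 of each list with the largest difference and any past the threshold, and the 5 nearest to Selenbp1. The members and lists were chosen with earlier results of these data known. Array pairs came from the spike-ins, each low glucose array with its nearest TGF-beta1 array; over all genes the log2 values correlated at 0.988 and 0.99 within the pairs and at 0.955 within each group. Alternatives covered the pseudocount, normalisation, filter, probe set choice, replicate block and each array left out; figures used matplotlib 3.10.9.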

Additional observations from a re-analysis of the deposited data

How the results depend on the processing

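The Selenbp1 difference of -1.29 was -1.38 with the pseudocount at the 10th percentile, -1.14 with it at the median, -1.52 with a floor in place of a pseudocount and -1.02 at the other probe set; with single arrays left out it ran from -1.35 to -1.24. Probe sets annotated to both Selenbp1 and Selenbp2 were planned as an alternative, but there were 0 to use. Without a block, 0 genes were called between TGF-beta1 and low glucose under the pseudocounts, scalings and filters tried, 0 to 9 with single arrays left out (9 without either low glucose array, 2 without TGF-beta1 replicate 2), and 2503 with the array pair as a replicate block. The count between the pairs, 5597, was 9515 over all kept probe sets, 9015 with the group as a second term, and 2813 to 4186 with single arrays left out, lowest without low glucose replicate 2; leaving out TGF-beta1 replicate 2 gave 3413. The second term, the left-out arrays and the pseudocounts for the pair contrast were chosen after seeing the data. Across the members' alternatives, 77 differences moved by less than the spread between replicates and 5 by more, and 4 of those 5 are the Selenbp1 values above; the fifth was its dimmer probe set with a floor, -1.37. Leaving out arrays unbalances the pairs: Gpx8 ran from -0.39 to 0.19, Selenop from -0.64 to 0.03 and Gpx7 from -0.17 to 0.1, so their signs depended on which arrays were kept. The direction of the 14 list genes that passed with the block did not turn under the scalings and pseudocounts tried. The median over all tested genes was 0.01 with the authors' scaling and -0.015 with median centring. Signal near background limits Gpx3 and Gpx7 most.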

Other observations

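Genes around the members' reactions that the text has not yet described fall in 2 further lists. Of 12 genes of oxidative folding in the endoplasmic reticulum, the compartment of GPX7 and GPX8, 1 fell with the array pair as a block, 0 rose and 11 missed the threshold; the median was -0.02, and -0.05 at the lowest with 1 array left out. Vkorc1, the vitamin K epoxide reductase, fell by 0.26, from 1174 and 948.5 in low glucose to 822.4 and 934.7 in TGF-beta1. Ero1a, the oxidase whose hydrogen peroxide GPX7 and GPX8 use, differed by -0.16 at its brightest probe set and by 0.08 and -0.01 at the others, and Pdia5, a disulfide isomerase, by 0.18; neither passed.

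Of 13 genes of lipid peroxidation and ferroptosis, the process that GPX4 restrains, 3 rose with the block, 0 fell and 10 missed the threshold; the median was 0.02, and from -0.09 without TGF-beta1 replicate 2 to 0.15 without TGF-beta1 replicate 1. Over all genes 7.89% rose and 10.6% fell with the block, and this list too was chosen with earlier results known. Chac1, which degrades glutathione, read 947.2 and 943.9 in low glucose against 1582 and 1559 in TGF-beta1, and rose by 0.70. Gch1, which starts tetrahydrobiopterin synthesis, read 161.8 and 173.3 against 255.6 and 258.6, and rose by 0.51; its other probe set differed by 0.27. Hmox1, the heme oxygenase induced by oxidants, read 838.5 and 656.6 against 876.0 and 1674, and rose by 0.67; its within-pair differences were 0.95 and 0.39, so the size rested mostly on TGF-beta1 replicate 2. The groups did not overlap for any of these 3 genes, and limma without the block called none of the 13, as it called 0 of all genes, with 271 at an unadjusted p under 0.05.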
